A study of Homo sapiens with 45 samples.

Results

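The regions described here are CTCF regions of DMSO-treated HEK293T cells at which MBD2 was the only listed partner. They were chosen from the deposited peak lists as distinct DMSO CTCF regions that overlapped an MBD2 region by 1 bp or more and overlapped no MBD3 and no TET1 region of DMSO. The rule was met by 3660 of 17440 DMSO CTCF regions, or 21.0% (95% Wilson interval 20.4 to 21.6). HEK293T is a human embryonic kidney line, and ChIP-seq was done with antibodies to CTCF, MBD2, MBD3 and TET1 after 72 h with 30 µM BPK25, with 0.5 mM IAA or with the solvent DMSO. Each treatment and antibody had 3 libraries. The authors pooled them before peak calling, so each list gives 1 value with no replicate error. The labels' growth protocol also speaks of edited derivatives of the line and does not say which libraries used them. IAA is an auxin used with degron tags, and its target protein is not stated in the labels. Peak lists hold no expression values, so the cell type was not checked against its markers.

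CTCF is a zinc finger protein that binds DNA at insulators and chromatin loop anchors, and at some of its sites binding is sensitive to CpG methylation. NuRD is a complex that remodels nucleosomes and removes acetyl groups from histones, and a single NuRD complex is known to hold either MBD2 or MBD3. MBD2 binds methylated CpG, whereas mammalian MBD3 has little affinity for it. TET1 oxidises methylated cytosine. No other NuRD subunit was measured, so a CTCF region with MBD2 alone is one where MBD2, and neither MBD3 nor TET1, passed the authors' threshold.

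MBD2 alone was the commonest state of a DMSO CTCF region that had exactly 1 partner. MBD2 was the sole partner at 3660 regions, MBD3 at 940 and TET1 at 374. The DMSO list of MBD2 was also the longest of the 3, with 15991 regions, against 10137 for MBD3 and 7211 for TET1. Another 2847 regions had MBD2 with MBD3 and 1224 had MBD2 with TET1, while 4016 had all 3 partners and 4083 had none. Of the 11747 CTCF regions with MBD2, 31.2% (30.3 to 32.0) had MBD2 only. From the MBD2 side, 3660 of its 15991 DMSO regions lay at these CTCF regions, which is 22.9% (22.2 to 23.5) of the MBD2 list. All these classes follow from the choice of members, so they are a description and were not tested.

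**Figure D1:**
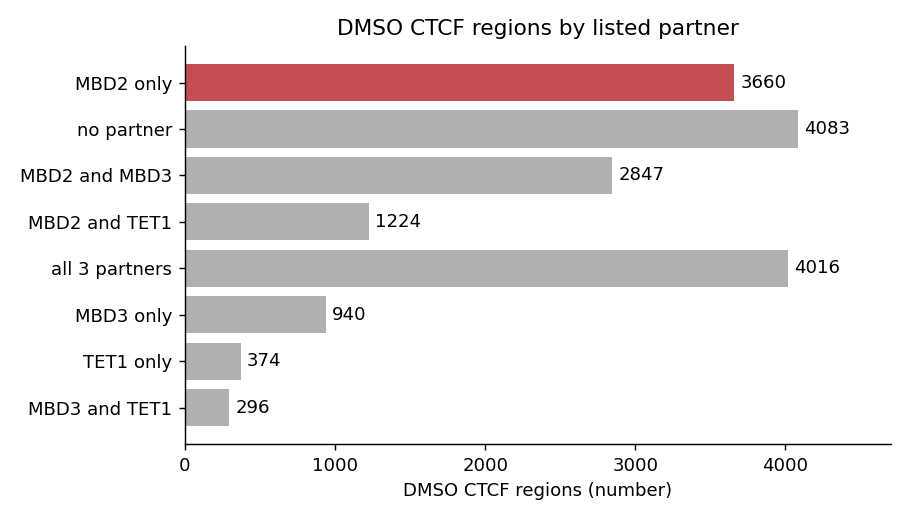
Number of DMSO CTCF regions (horizontal axis) for each combination of listed partners, with the 3660 regions that had MBD2 only in red. They outnumber the 940 regions with MBD3 only and the 374 with TET1 only.

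The CTCF fold of these regions lay above that of regions with no partner and below that of regions with MBD2 and a further partner. The fold enrichment used below was written by the authors' peak caller and is the pileup at a peak's summit over its local background, as a linear ratio. The CTCF fold had a median of 4.16 (quartiles 3.51 and 4.92) with MBD2 only, against 3.64 (3.00 and 4.38) with no partner. It was 4.60 with MBD2 and MBD3, 4.50 with MBD2 and TET1, and 5.31 with all 3 partners. The 95% order-statistic interval of the median, which covers counting over regions only, was 4.12 to 4.20 with MBD2 only and met none of these, the nearest being 4.43 to 4.58 with MBD2 and TET1. Among the classes without MBD2, the median was 3.98 (3.89 to 4.08) with MBD3 only, 4.16 (3.95 to 4.28) with TET1 only and 4.29 (4.12 to 4.47) with MBD3 and TET1, and the intervals of both classes with TET1 overlapped that with MBD2 only. The MBD2 fold followed the same order, with a median of 4.31 (4.26 to 4.35) with MBD2 only, 4.74 with MBD2 and MBD3, 4.74 with MBD2 and TET1, and 5.49 with all 3 partners. Folds ran from 1.55 to 12.7 for CTCF and from 1.56 to 9.64 for MBD2 within the 3660 regions.

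Few of the 3660 regions had an MBD2 fold of 8 or more. An MBD2 fold of 5 or more was found at 1003 of them (27.4%), a fold of 8 or more at 16 and a fold of 10 or more at 0. Of the 11747 CTCF regions with MBD2, 5230 had an MBD2 fold of 5 or more, 507 of 8 or more and 121 of 10 or more. Regions with MBD2 only made up 19.2% (18.1 to 20.3) of those at 5 or more and 3.16% (1.95 to 5.06) of those at 8 or more. The balance of MBD2 and CTCF had a similar median in every class with MBD2. The ratio of MBD2 fold to CTCF fold had a median of 1.03 (quartiles 0.904 and 1.19) with MBD2 only, against 1.03 with MBD2 and MBD3, 1.05 with MBD2 and TET1 and 1.03 with all 3 partners.

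**Figure D2:**
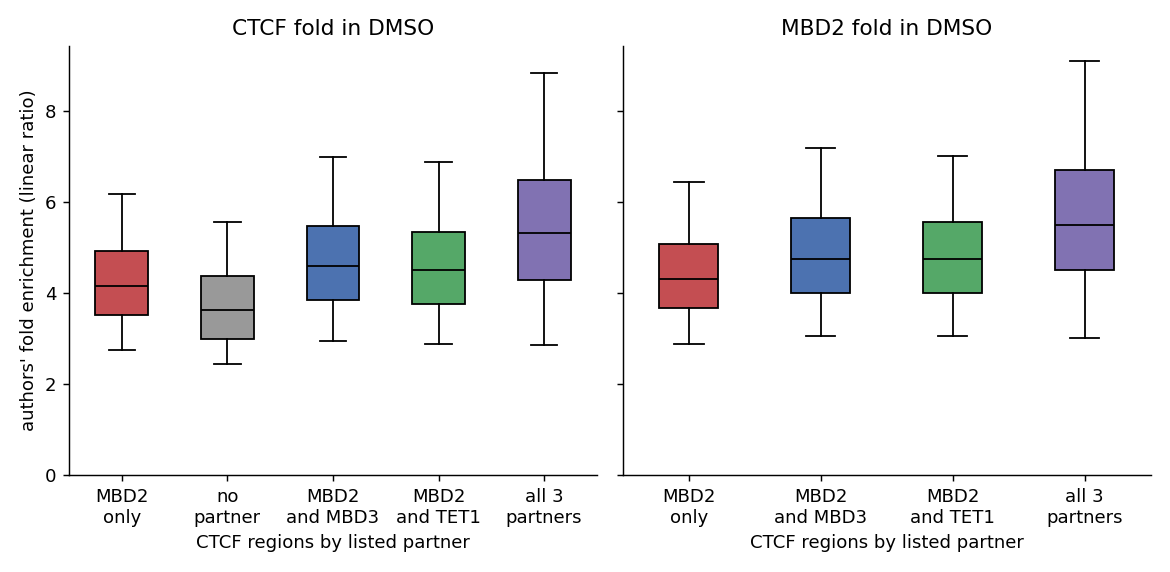
Authors' fold enrichment of CTCF (left) and of MBD2 (right) at DMSO CTCF regions by listed partner; boxes give the median and quartiles, whiskers the 5th and 95th percentiles. The medians with MBD2 only, 4.16 for CTCF and 4.31 for MBD2, lie below those with MBD2 and a further partner.

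Across the range of CTCF fold, the share with MBD2 only was highest in the second quartile. When all 17440 regions were put in quartiles by CTCF fold, from low to high, it was 21.1% (19.9 to 22.3), 26.1% (24.9 to 27.5), 23.2% (22.01 to 24.5) and 13.5% (12.5 to 14.5). The share with no partner was 42.7%, 26.0%, 17.9% and 7.06% over the same quartiles, and the share with all 3 partners 9.42%, 14.5%, 21.4% and 46.8%. When every list had to have a −log10 q of 5 or more, the share with MBD2 only was highest in the lowest quartile, at 29.3% (27.8 to 30.7), followed by 28.1% (26.7 to 29.6), 24.5% and 14.2%. That limit also drops weak MBD3 and TET1 regions, so CTCF regions with MBD2 that overlapped only these join the class. With the same limit for CTCF and MBD2 alone the share was 22.4%, 22.7%, 20.7% and 12.6%. Under both limits the low share in the highest quartile thus remained, while the lowest and second quartiles had overlapping intervals. Under the alternative settings without a q limit, the second quartile stayed the highest, at 25.8% to 26.2%.

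Among CTCF regions that had MBD2, the share with MBD2 only was lower at higher MBD2 fold. It was 46.2% (44.4 to 48.0) in the lowest quartile of MBD2 fold, then 37.3% and 27.3%, and 13.7% (12.5 to 15.0) in the highest. Where both folds were in their lowest quartile among regions with MBD2, 856 of 1799 regions (47.6%) had MBD2 only, and where both were in the highest, 172 of 1864 (9.23%, 7.996 to 10.6). At low CTCF fold the share was 36.5% (31.2 to 42.1) of 296 regions in the second-highest MBD2 quartile. At high CTCF fold and low MBD2 fold it was 24.6% (15.5 to 36.7) of 61 regions.

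**Figure D3:**
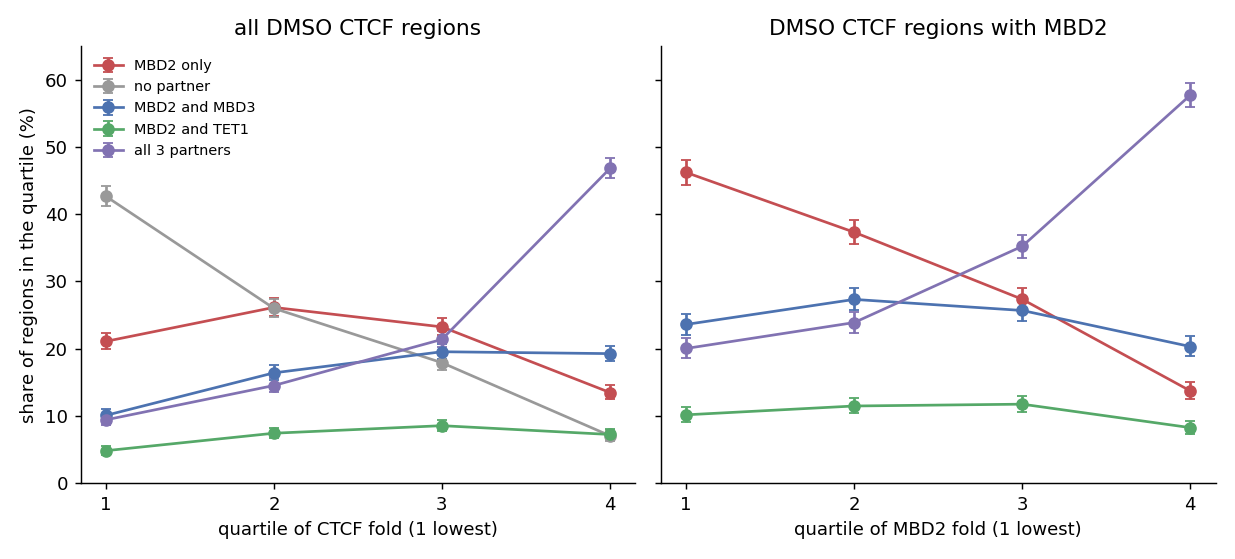
Share of regions (%) with each combination of partners by quartile of CTCF fold over all DMSO CTCF regions (left) and by quartile of MBD2 fold over CTCF regions with MBD2 (right); bars are 95% Wilson intervals. The share with MBD2 only is largest, 26.1%, in the second CTCF quartile and is 13.7% in the highest MBD2 quartile.

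The MBD3 and TET1 lists have their own detection limits, which bear on the absence of these proteins. Where MBD3 was listed beside MBD2 without TET1, its fold had a median of 0.815 times the MBD2 fold, and TET1 beside MBD2 without MBD3 a median of 0.698 times. Pileups, in fragments at the summit, were recovered from the authors' fold and p-value. Where local background was no more than 1.5 times the smallest in its list, the least pileup listed in DMSO was 15 fragments for MBD3, 17 for TET1 and 13 for MBD2. A partner below these limits is not distinguished from an absent one, and the part of this in the class was not tested.

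MBD2 and CTCF peaked at nearly the same base in these regions. The distance between their summits had a median of 13 bp (quartiles 6 and 25) with MBD2 only, 11 bp with MBD2 and MBD3, 12 bp with MBD2 and TET1 and 10 bp with all 3 partners. In 2769 of the 3660 regions, or 75.7% (74.2 to 77.0), the summits were within 25 bp, and at 80 regions they were the same base. The MBD2 summit lay at the higher coordinate in 49.5% of regions. At 99 regions (2.70%) the summits were over 100 bp apart, up to 937 bp.

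**Figure D4:**
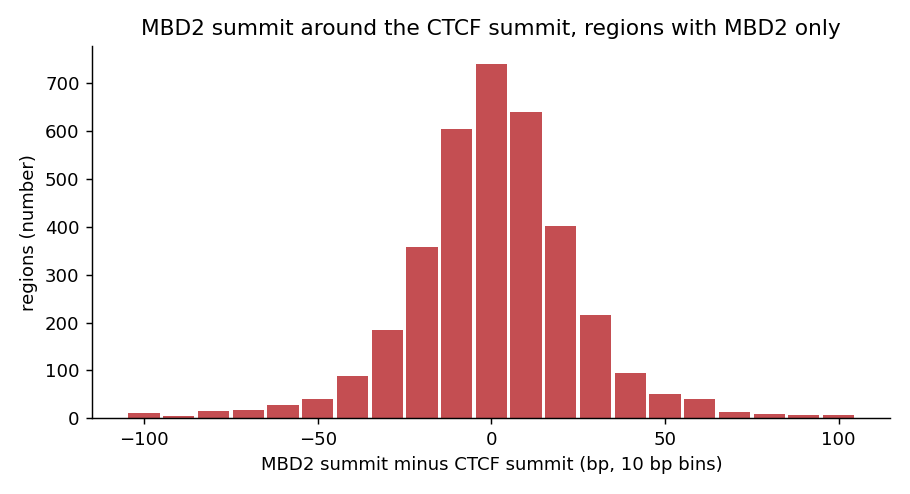
Number of regions with MBD2 only by the position of the MBD2 summit relative to the CTCF summit (bp, in 10 bp bins). The distribution is centred on 0, and 741 regions fall in the central bin.

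The regions were short and simple in shape. Their median CTCF width was 239 bp, against 230 bp with no partner, 257 bp with MBD2 and MBD3 and 295.5 bp with all 3 partners. The overlap with MBD2 had a median of 212 bp. A CTCF region with 2 or more summits occurred 27 times (0.738%) with MBD2 only, against 44 times (1.55%) with MBD2 and MBD3 and 219 times (5.45%) with all 3 partners.

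The edge of the rule held few regions. The shortest overlap with an MBD2 region was 28 bp, at chromosome 3 from 185628535 to 185628810 (hg19), where the CTCF fold was 2.64, the MBD2 fold 2.92 and the summits 380 bp apart. The next was 49 bp, on chromosome 11 from 122926744 to 122926943, with folds of 2.97 for CTCF and 3.93 for MBD2. Just outside, 1 CTCF region with no partner had an MBD2 region within 100 bp. On the side of the excluded proteins, 4 of the 3660 regions had an MBD3 or TET1 region within 100 bp. The closest, with a TET1 region 36 bp away, lay on chromosome 10 from 998685 to 998980. The next, on chromosome X from 73042937 to 73043885, had a TET1 region 44 bp away. Within 1 kb there were 69 regions (1.89%, 1.49 to 2.38), and the median gap to the nearest MBD3 or TET1 region was 51.4 kb.

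Regions were named for fold only on chromosomes 1 to 7, 9 to 22 or X, with a −log10 q of 5 or more. Among these, the highest MBD2 folds in the class lay on chromosomes 4, 22 and 12. They were not the highest pileups, which reached 281 fragments for MBD2 in the class. The region on chromosome 4 from 96016568 to 96016815 had an MBD2 fold of 9.64 and a CTCF fold of 7.62. Its pileups were 45 fragments for MBD2 and 40 for CTCF, its summits were 6 bp apart, and the nearest MBD3 region was 136027 bp away. On chromosome 22 from 32476995 to 32477211 the MBD2 fold was 9.19 and the CTCF fold 7.47. The region on chromosome 12 from 102167403 to 102167699 had folds of 9.07 for MBD2 and 7.41 for CTCF. In each of the 3, MBD2 exceeded CTCF in fold, which the choice by MBD2 fold favours. The nearest TET1 or MBD3 region was at least 13846 bp away from each.

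Within the same limits, the 3 regions of highest CTCF fold also had MBD2 folds above the 95th percentile of the class, 6.43. The region on chromosome 2 from 95539960 to 95540240 had a CTCF fold of 12.7, from 67 fragments, and an MBD2 fold of 6.92, from 32 fragments. It was the single region of the class with a CTCF fold of 10 or more. On chromosome 1 from 62536129 to 62536431 the CTCF fold was 9.28 and the MBD2 fold 7.08. A region on chromosome 4 from 167013049 to 167013375 had folds of 9.08 for CTCF and 7.93 for MBD2. In all 3 the summits were at most 21 bp apart.

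Other regions leaned toward MBD2. On chromosome 12 from 98766795 to 98766998 the MBD2 fold was 7.05 and the CTCF fold 3.64, a ratio of 1.93. A region on the same chromosome from 52533360 to 52533580 had folds of 6.21 for MBD2 and 3.26 for CTCF, with summits 52 bp apart. The third, on chromosome 19 from 14999642 to 14999952, had folds of 7.05 and 3.77. None of the regions named so far for fold or ratio was in a treated list. Gene annotation and sequence of hg19 were not used here, so the regions carry no gene names.

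The class was found on each of chromosomes 1 to 22 and X. There, between 17.1% (chromosome 16) and 25.6% (chromosome 18) of CTCF regions had MBD2 only. The interval of chromosome 11, at 25.4% (22.6 to 28.5), lay above the share of 21.0% over all CTCF regions, and those of chromosomes 4, 13 and 16 lay below it. Off chromosomes 1 to 22 and X, 19 regions had MBD2 only, or 0.519% of the class, against 1.45% of regions with no partner and 1.12% of those with all 3 partners. Over all CTCF regions the share was 1.08%. A local background over 3 times the smallest of the CTCF list was found at 9.64% (8.73 to 10.6) of regions with MBD2 only, against 6.34% with no partner and 16.1% with all 3 partners. It was near the 10.4% (9.92 to 10.8) over all CTCF regions and the 10.1% with MBD2 and MBD3. The nearest CTCF region also had MBD2 only in 21.8% (20.5 to 23.1) of cases, against 20.8% (20.2 to 21.4) over all CTCF regions. Another CTCF region lay within 10 kb of 21.8% of regions with MBD2 only, against 21.0% with no partner and 27.6% with all 3 partners. Over all CTCF regions this was 23.5%.

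Almost no region of the class was listed for CTCF or MBD2 after treatment, and the treated lists were themselves short. Under BPK25 they held 375 regions for CTCF and 510 for MBD2, against 17440 and 15991 in DMSO. Under IAA they held 595 and 138. Few regions of any class could thus be listed. The treated lists were not used to choose the members. The IAA list of CTCF and the BPK25 list of MBD2 share many regions that no DMSO list holds, 155 of 417 such IAA regions. These lie outside the class by its rule. Of the class, 2 regions were in the first list, 4 in the second and 0 in both. With counts so small the 0 says nothing about the class. BPK25 is known from other work as a compound that reduces NuRD subunits. Under it, 7 of the 3660 regions had a CTCF region (0.191%, 0.0927 to 0.394), against 1.27% of all DMSO CTCF regions. An MBD2 region under BPK25 was found at 4 (0.109%, 0.0425 to 0.281), against 1.42% of all DMSO CTCF regions. An MBD3 region under BPK25 was also found at 4, against 1.1% of all. Between classes no test was made, since each treated list is 1 pooled value.

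For CTCF and MBD2 under BPK25, the shares with MBD2 only were smaller than those with MBD2 and MBD3. The shares with no partner lay between these. For CTCF the shares were 0.191% with MBD2 only, 0.392% (0.241 to 0.636) with no partner, 0.773% (0.511 to 1.17) with MBD2 and MBD3, and 3.78% (3.24 to 4.42) with all 3 partners. For MBD2 they were 0.109%, 0.269% (0.151 to 0.482), 0.597% (0.373 to 0.954) and 4.61% (4.0005 to 5.30) in the same order. The intervals with MBD2 only overlapped those with no partner and lay below those with MBD2 and MBD3 and with all 3 partners. With MBD2 and TET1 the shares were 0.163% (0.0448 to 0.594) for CTCF, which overlaps, and 0.654% (0.332 to 1.28) for MBD2, which lies above. The gap to the class with MBD2 and MBD3 moved with local background, whose part in it was not tested. Where the background was no more than 3 times the smallest in the list, the shares for MBD2 were 0.121% (0.0470 to 0.311) with MBD2 only and 0.430% (0.240 to 0.768) with MBD2 and MBD3, with overlapping intervals. For CTCF they were then 0.121% (4 of 3307) with MBD2 only and 0.0782% (2 of 2558) with MBD2 and MBD3. Above that background they were 0.850% (3 of 353) and 6.62% (19 of 287). With no partner the CTCF share was 0.0785% (3 of 3824) at the lower background and 5.02% (2.96 to 8.40) above it. There the interval with MBD2 only, 0.289 to 2.47, lay below that with no partner. For MBD2 above that background the counts were 0 of 353 with MBD2 only and 2 of 259 with no partner. With all 3 partners the shares moved too. They were 0.989% for CTCF and 2.37% for MBD2 at the lower background, and 15.3% and 14.6% above it.

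Depth also differed between the lists. The smallest local background, which grows with the number of fragments, was 5.89% of the DMSO value in the BPK25 list of CTCF and 49.5% in that of MBD2. If the pileups of the class are scaled to these depths, 4.08% of its regions would be expected to pass the least −log10 p of the BPK25 CTCF list and 70.8% that of the BPK25 MBD2 list. Observed were 0.191% for CTCF and 0.109% for MBD2. Other classes also fell short of their expectation. With MBD2 and MBD3 it was 6.71% for CTCF and 80.8% for MBD2, against 0.773% and 0.597% observed. With all 3 partners it was 13.7% and 89.5%, against 3.78% and 4.61%. The expectation takes each DMSO pileup as the true level, which is high for regions near the threshold. Lower occupancy and a less enriched library cannot be told apart here.

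The few regions listed under BPK25 had between 6 and 50 fragments at the summit for CTCF (median 9), 12 to 18 for MBD2 (median 15) and 6 to 66 for MBD3 (median 36). The highest BPK25 CTCF fold in the class, 7.38, lay on chromosome 5 from 113014726 to 113014938. It came from 9 fragments under BPK25, against 49 fragments and a fold of 3.69 in DMSO. On chromosome 10 from 97123134 to 97123411 the BPK25 CTCF fold was 6.28 from 7 fragments, against a DMSO fold of 6.61 from 50. For MBD2, the highest BPK25 folds were 5.07 from 18 fragments on chromosome 7 from 26224171 to 26225009, and 4.54 from 12 fragments on chromosome 3 from 197895786 to 197896107. Both had low DMSO MBD2 folds, 2.80 and 2.63, and a TET1 region of DMSO lay 247 bp and 1052 bp away. None of the 4 regions with MBD2 under BPK25 remained when the DMSO CTCF and MBD2 regions had to have a −log10 q of 5 or more. For MBD3, BPK25 folds of 6.36 from 9 fragments and 4.27 from 6 were found on chromosome 4, from 141531186 to 141531444 and from 155424731 to 155425103, where MBD3 was not listed in DMSO.

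TET1 under BPK25 was the exception. Although the class was defined by having no TET1 region in DMSO, 54 of its regions had one under BPK25, which is 1.48% (1.13 to 1.92), against 3.84% of all DMSO CTCF regions. The share was 0.539% (0.356 to 0.815) with no partner, 3.44% (2.83 to 4.18) with MBD2 and MBD3, 2.04% (1.39 to 2.998) with MBD2 and TET1, and 11.2% (10.2 to 12.2) with all 3 partners. Among the classes without MBD2, a TET1 region under BPK25 was also found at 16 of the 940 regions with MBD3 only. It was found at 1 of the 374 with TET1 only and at 5 of the 296 with MBD3 and TET1. Regions with MBD2 only were above those with no partner and below those with MBD2 and MBD3, with intervals that do not overlap. The interval did overlap that of regions where TET1 was already listed in DMSO beside MBD2. With a −log10 q of 5 or more required in every list, the count was 23 of 3585 (0.642%). That limit also applies to the BPK25 TET1 list, in which the 54 regions had a median −log10 q of 4.29, so a lower count follows. With the limit for the DMSO CTCF and MBD2 lists alone, the count was 46 of 2924 (1.57%, 1.18 to 2.09).

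These TET1 peaks sat on the CTCF summits of DMSO. The distance from the BPK25 TET1 summit to the DMSO CTCF summit had a median of 19 bp (quartiles 9.5 and 36.75), and at most 204 bp. All 54 lay on chromosomes 1 to 22 and X, and 53 of them were in no other treated list. The BPK25 TET1 fold had a median of 5.12 and ran from 3.499 to 7.87, from 9 to 25 fragments. The highest, 7.87, lay on chromosome 1 from 186451892 to 186452273. The next, 7.29, lay on chromosome 6 from 97634358 to 97634574. These 2 regions had DMSO CTCF folds of 4.76 and 3.65, and the nearest TET1 regions of DMSO were 107096 bp and 207508 bp away.

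The DMSO TET1 list was the deeper of the pair. The smallest local background of the BPK25 TET1 list was 20.4% of that in DMSO. The absence of these regions from the DMSO TET1 list is part of the rule. Counting error of single pileups is wide at 9 to 25 fragments, and the regions were picked for passing the BPK25 threshold.

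The 54 regions were not the strongest of the class. Their DMSO CTCF fold had a median of 4.12 (3.83 to 4.57), against 4.16 (4.12 to 4.20) in the other 3606, and their DMSO MBD2 fold a median of 4.12 (3.76 to 4.50), against 4.32 (4.27 to 4.35). Their pileups were higher, with medians of 44.5 fragments (42.0 to 49.0) against 37.0 (36.0 to 37.0) for CTCF and 41.0 (38.0 to 45.0) against 33.0 (33.0 to 34.0) for MBD2. Their local background was higher too, at 2.39 times the smallest of the CTCF list (2.15 to 2.76), against 1.82 times. By quartile of CTCF fold over all regions, the share of the class with TET1 under BPK25 was 1.30%, 1.67%, 1.78% and 0.850% from lowest to highest, with overlapping intervals. With background no more than 3 times the smallest, it was 1.21% (0.890 to 1.64) with MBD2 only, 0.497% (0.318 to 0.775) with no partner and 2.97% (2.38 to 3.70) with MBD2 and MBD3.

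Under IAA, 2 regions of the class were listed, both for CTCF. That is 0.0546% (0.0150 to 0.199), against 0.952% of all DMSO CTCF regions. One lay on chromosome 17 from 54204025 to 54204219, with an IAA CTCF fold of 4.25 from 14 fragments. The other, on chromosome 10 from 62576335 to 62576588, had an IAA CTCF fold of 3.93 from 11 fragments. For the other antibodies, MBD2, MBD3 and TET1, the count under IAA was 0 of 3660 each, which allows a share of up to 0.0820%, against 0.631%, 0.442% and 0.459% of all DMSO CTCF regions. Counts this low were not particular to the class. With no partner they were 6, 1, 2 and 0 of 4083 for CTCF, MBD2, MBD3 and TET1. With MBD2 and TET1 in DMSO they were 2, 0, 0 and 1 of 1224, and with MBD2 and MBD3 11, 9, 4 and 3 of 2847. With all 3 partners in DMSO the shares were 3.29% for CTCF, 2.22% for MBD2 and 1.69% for MBD3, and that for TET1 was 1.77%. These shares moved with local background, whose part was not tested. Where it was no more than 3 times the smallest, MBD2 under IAA was found at 0 of 3307 regions with MBD2 only and 0 of 3337 with all 3 partners. Above that background it was found at 0 of 353 and 58 of 639. With all 3 partners, MBD3 and TET1 were each found at 1 of 3337 regions at the lower background, and at 41 and 45 of 639 above it. The depth of the IAA CTCF list was 21.6% of DMSO by its smallest background, at which 30.3% of the class would be expected past its least −log10 p. For the IAA MBD2 list these values were 28.7% and 34.3%. With all 3 partners 59.4% would be expected for CTCF and 64.0% for MBD2, also above the observed shares.

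In all, 3592 of the 3660 regions (98.1%, 97.7 to 98.5) were in no treated list. Of the others, 66 were in a BPK25 list and 2 in an IAA list, 3 were in 2 or more BPK25 lists and 0 in all 4.

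**Figure D5:**
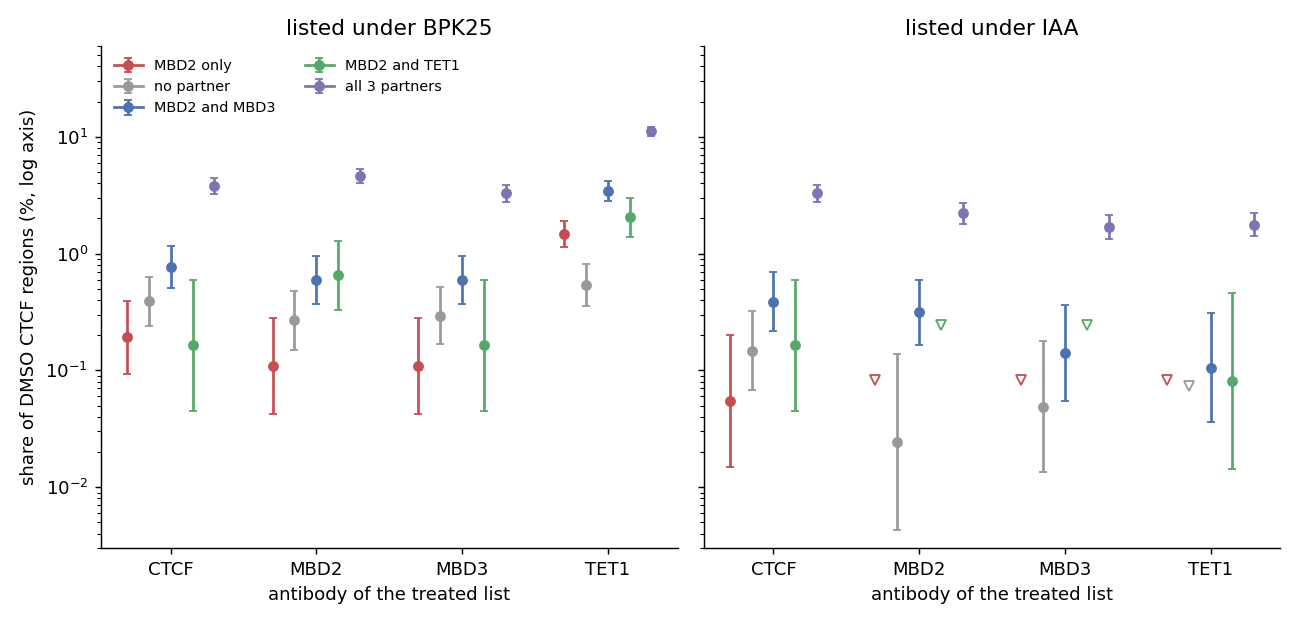
Share of DMSO CTCF regions (%, log axis) that overlapped a region of each antibody under BPK25 (left) and IAA (right), by partners in DMSO; bars are 95% Wilson intervals, and open triangles mark the share that a count of 0 allows. Regions with MBD2 only (red) reach 1.48% for TET1 under BPK25 and at most 0.191% in every other treated list.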

How the data were processed

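The study deposited 12 peak lists, 1 for each of 3 treatments and 4 antibodies, from 36 immunoprecipitated and 9 input libraries. Per the file names, the authors called peaks on replicates 1 to 3 together against controls. Tools named in the submitters' processing notes are MACS2 2.1.2, Bowtie2 2.3.4, SAMtools 1.9, bedtools 2.25.0, deepTools 3.5.0 and FastQC 0.11.7, with build hg19, and the caller's settings and filters were "not given in the sources used here". Fold enrichment, as deposited, is a linear ratio written by the authors' caller. The −log10 of the p-value and q-value, the score and the summit offset are also the authors' deposited values. They rank and select peaks within a list. Folds and pileups of different lists are set side by side as descriptions only, since each list has its own depth. A list's depth in reads is unknown.

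Sub-peaks with the same start and end were merged into 1 region, which took its values from the most significant sub-peak. Where several regions of a list overlapped, the one of largest −log10 p gave the value. Pileup and background were solved from fold, read as pileup plus 1 over background plus 1, and the Poisson tail, within 0.02% of the −log10 p, up to a −log10 p of 150. All 3660 regions of the class were solved. The smallest background of a list stands for its depth. Scripts were tested on simulated data. Python 3.11.15, numpy 2.4.6, pandas 2.3.3, SciPy 1.17.1 and matplotlib 3.10.9 were used.

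Intervals are 95% Wilson for shares and order-statistic for medians. They cover counting over regions only, and neighbouring regions are not independent. A count of 0 allows up to 3. No p-value was computed, since each group has 1 pooled list. Lists of a treatment may share their inputs as control. Named regions lie on chromosomes 1 to 7, 9 to 22 or X with a −log10 q of 5 or more for CTCF and MBD2. They are the 3 of highest MBD2 fold, CTCF fold and ratio, and the 2 of highest fold per treated list, where the q limit was dropped if under 2 passed. The 2 closest to each edge of the rule, with no q limit, complete them. Members and rules were chosen with earlier results of these data known.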

Additional observations from a re-analysis of the deposited data

How the results depend on the processing

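Under 7 alternative settings, 98 values of 14 results were recomputed, and 84 stayed within their interval or, for the number of regions, within 1.5 times. The number of regions with MBD2 only ranged from 2924 to 3666, against 3660. With a −log10 q of 5 or more in every list, the median fold was 4.48 for MBD2 and 4.31 for CTCF, the median summit distance 12 bp, the share in the lowest quartile of CTCF fold 29.3%, the share with TET1 under BPK25 0.642% and that with CTCF under IAA 0. That limit also removes weak MBD3 and TET1 regions from the DMSO lists, so CTCF regions with MBD2 that overlapped only these join the class. It shortens the treated lists too. The class then held 3585 regions, against 2924 with the limit for CTCF and MBD2 alone. How much of each change this made was not tested. With that limit for CTCF and MBD2 alone, the medians were 4.51, 4.37 and 12 bp, the lowest quartile held 22.4%, and the share with MBD2 under BPK25 was 0. With local background at most 3 times the smallest, the median fold was 4.39 for MBD2 and 4.25 for CTCF, and the share with MBD3 under BPK25 was 0.0302%. By construction the limits on q and background drop weak or raised-background CTCF regions. The limit in every list also admits regions with weak MBD3 or TET1.

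Pooled lists limit everything here: no library was left out. No paired analysis was possible because the deposited lists pool replicates 1 to 3. The planned motif, CpG and gene-start results were not run, since a genome of build hg19 was not used here. Treated shares rest on at most 54 regions, and on 7 or fewer outside TET1 under BPK25.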
